A study of Mus musculus with 6 samples.

Results

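The 10 genes described here belong to the Hippo pathway: the coactivator genes Yap1 and Wwtr1 (the latter encodes TAZ), the TEAD transcription factor genes Tead1 and Tead4, the kinase genes Lats1 and Lats2, and the target genes Cyr61, Ctgf, Ankrd1 and Amotl2. They were taken by gene symbol from a table of 22706 mouse genes, and all 10 were found and passed the filter on low values. RNA had been measured in muscle stem cells (MuSCs), the satellite cells that rebuild muscle fibres after injury, in 6 libraries of 3 groups with 2 libraries each. Control mice were wild type, mdx mice lacked functional dystrophin through a mutation of the Dmd gene, and Sirt6mKO/mdx mice carried the same mutation together with a deletion of Sirt6, which encodes a NAD-dependent deacetylase. The labels gave the strain of all 3 groups as C57BL/6 and the cells as freshly isolated, with no treatment. The labels gave no age, and legends of figures built on these MuSC libraries name male mice at stated ages that all include 12 weeks. Per the study's methods, Sirt6 carried floxed exons and was removed by Cre under the Pax7 promoter, a constitutive driver in the muscle lineage, so the deletion was not timed to adulthood. Cells were sorted by flow cytometry after enzymatic digestion of limb and trunk muscle and magnetic depletion of cells that carry Sca1, CD45 or CD31, which mark fibro-adipogenic, blood and endothelial cells. The digest was passed through strainers, which hold back fibres, and the gates described took cells positive for Integrin-a7 and CD34 or for a GFP or YFP reporter. The exact sorting gate used for each library was not stated. No group analysed here carried the Sirt6 deletion without the mdx mutation.

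In the Hippo pathway, the kinases LATS1 and LATS2 phosphorylate YAP and TAZ, which holds these coactivators in the cytoplasm or marks them for degradation. When the kinases are inactive, for example in spread cells or on a stiff substrate, YAP and TAZ enter the nucleus and bind TEAD factors, which recognise DNA and switch on genes such as Cyr61 and Ctgf. AMOTL2 and LATS2 are themselves encoded by target genes and act back on the pathway as inhibitors. YAP is known to favour the proliferation of activated MuSCs, and its activity is regulated by phosphorylation and location, which an RNA level does not show.

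The DNA that TEAD factors recognise is printed first, because it was present in the promoter window of each target gene that had one. RefSeq promoter windows of the GRCm38.p6 build, covering 250 bases before and 50 after a transcription start site, were matched by symbol for 7 of the 10 genes in 9 windows (Cyr61 under its newer symbol Ccn1). Ctgf, Tead1 and Tead4 had no window. The TEAD motif CATTCC, or GGAATG on the other strand, was searched on both strands and is shown in capitals. The windows shown are those of Cyr61 at chr3:145649936-145650235 on the minus strand, Ankrd1 at chr19:36119795-36120094 on the minus strand, and Amotl2 at chr9:102717554-102717853 on the plus strand, each read 5′ to 3′.
Cyr61: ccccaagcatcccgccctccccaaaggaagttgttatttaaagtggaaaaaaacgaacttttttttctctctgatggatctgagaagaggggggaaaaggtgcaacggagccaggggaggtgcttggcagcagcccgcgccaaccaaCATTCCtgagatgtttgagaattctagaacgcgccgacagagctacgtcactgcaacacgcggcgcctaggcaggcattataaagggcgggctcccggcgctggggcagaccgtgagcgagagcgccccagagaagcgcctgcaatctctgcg
Ankrd1: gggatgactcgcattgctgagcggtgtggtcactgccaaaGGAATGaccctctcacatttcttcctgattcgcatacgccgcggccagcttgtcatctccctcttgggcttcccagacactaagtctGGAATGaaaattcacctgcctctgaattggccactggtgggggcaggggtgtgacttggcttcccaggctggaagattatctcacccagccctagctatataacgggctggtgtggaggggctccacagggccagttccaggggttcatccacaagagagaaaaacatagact
Amotl2: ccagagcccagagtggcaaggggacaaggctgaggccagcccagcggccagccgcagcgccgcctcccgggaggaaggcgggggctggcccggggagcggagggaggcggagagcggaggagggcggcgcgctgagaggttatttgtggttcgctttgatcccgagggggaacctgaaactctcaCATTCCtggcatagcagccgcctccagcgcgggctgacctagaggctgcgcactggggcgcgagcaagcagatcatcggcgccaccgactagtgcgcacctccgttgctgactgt
The motif began 103 bases before the start site of Cyr61, 65 bases before that of Amotl2, and 210 and 123 bases before that of Ankrd1. The Cyr61 window also held a TATA box, TATAAA, that began 25 bases before the start site. The TEAD motif was found in 7 of the 9 windows and in 6 of the 7 genes (85.7%), against 16.6% of the 27025 genes with a RefSeq window, and the pair of Wwtr1 windows overlapped and shared 1 motif. It lay 141 bases before the start of Yap1 and 5 bases after a start of Lats2, and it was in neither the window of Lats1 nor the other window of Lats2. Among the other Hippo pathway genes listed below, 6 of 19 genes (31.6%) held it, and among the other target genes 3 of 11 (27.3%). The AP-1 motif TGANTCA was in 0 of the 9 windows and in 7.81% of all 32851 windows, and the CArG box, bound by serum response factor, was in 0 of the 9 windows and in 1.63% of all windows. A match is a string of letters in a window and not a measured site of binding.

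**Figure D1:**
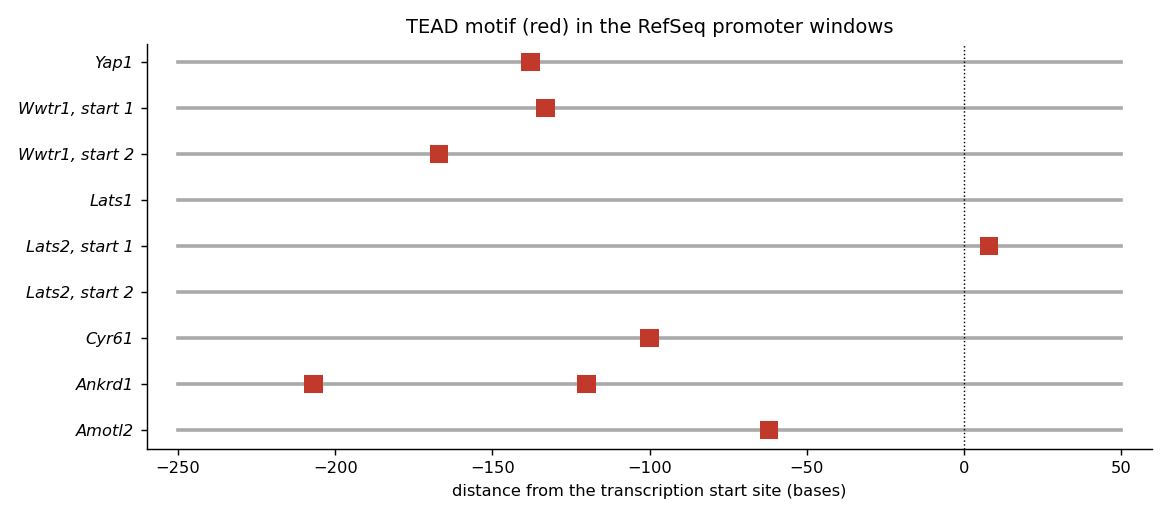
Position of the TEAD motif (red) in 9 RefSeq promoter windows (grey lines, 300 bases each) of 7 of the 10 genes. The horizontal axis is the distance in bases from the transcription start site, which is the dotted line; 7 windows held the motif, and Lats1 and the other start of Lats2 had none.

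The deposited values were read counts that the authors had normalized by a size factor per library and rounded, and they are called normalized read counts here. The size factors recovered from the pattern of whole numbers placed the libraries at about 4397765 to 9744197 reads on genes. Sirt6 had 41 and 32 (control) and 33 and 40 (mdx). It was at 37 and 30 where the label was Sirt6mKO/mdx, and no difference was detected there, with a log2 fold change against mdx of -0.12 (95% interval -1.19 to 0.95). The per-gene value also counts exons outside the deleted part, so it does not check the deletion. Pax7, the defining transcription factor of MuSCs, was between 2167 and 3236 in all 6 libraries, and all 8 MuSC markers listed were above 0 in every library. Of these markers 2 of 8 were called lower in mdx than in control, Sdc4 (6.44-fold) and Chrdl2 (5.14-fold), against 7.34% of all genes tested. Sdc4 was called higher in Sirt6mKO/mdx than in mdx, and both were called lower in Sirt6mKO/mdx than in control (-1.31 and -1.56 on the log2 scale). Xist, which is transcribed from the inactive X chromosome, was at 16772 and 12950 in control and at 7 to 34 in the other 4 libraries, while the Y-linked gene Ddx3y was at 3 and 8 in control and at 1024 to 1767 in the others. This is the pattern of female cells in the control libraries, which goes against the male mice that the study's text names for all 3 groups, and the source of the conflict was not found in the files used here. Sex and genotype therefore cannot be told apart in either comparison with control, and the comparison of Sirt6mKO/mdx with mdx did not have this split. The number of mice per library was not given in the sources used here, and the p-values measure the spread between these libraries.

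Levels are compared between genes per kb of exonic sequence, in normalized read counts per kb given as mean ± SD (n = 2). Wwtr1 was the more abundant coactivator gene in every library. It was at 259 ± 24.1 in control, 217 ± 9.91 in mdx and 210 ± 19.4 in Sirt6mKO/mdx, whereas Yap1 was at 77.0 ± 20.9, 38.2 ± 5.42 and 43.9 ± 1.99. Within a library, the Wwtr1 level was 2.63 and 4.44 times that of Yap1 in control MuSCs, then 6.11 and 5.33 times in mdx and then 4.95 and 4.63 times in Sirt6mKO/mdx, so the control ratios lay below those of the other groups. Lats1 and Lats2 had similar levels per kb, with 86.5 ± 22.2 and 84.0 ± 7.40 in control. The ratio of Lats1 to Lats2 ran from 0.604 to 1.30 over the 6 libraries, and the groups overlapped.

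Among the TEAD genes, Tead1 and Tead3 together made up most of the RNA per kb, and Tead4 the least. Tead1 gave 42.4% and 57.1% of the summed level per kb of the 4 TEAD genes in control, 41.1% and 43.9% of it in mdx, and 33.3% and 26.7% of it in Sirt6mKO/mdx. The Sirt6mKO/mdx shares were the lowest and did not overlap the others. Tead4, the family member best known from myoblast differentiation, gave 1.24% to 7.57%. Tead2 gave at most 10.6% in control and 17.6% to 28.8% in the other 4 libraries, without overlap. Tead3 gave 45.3% and 31.1% (control), 22.5% and 26.9% (mdx), and 47.2% and 43.5% (Sirt6mKO/mdx), and mdx lay below both other groups.

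**Figure D2:**
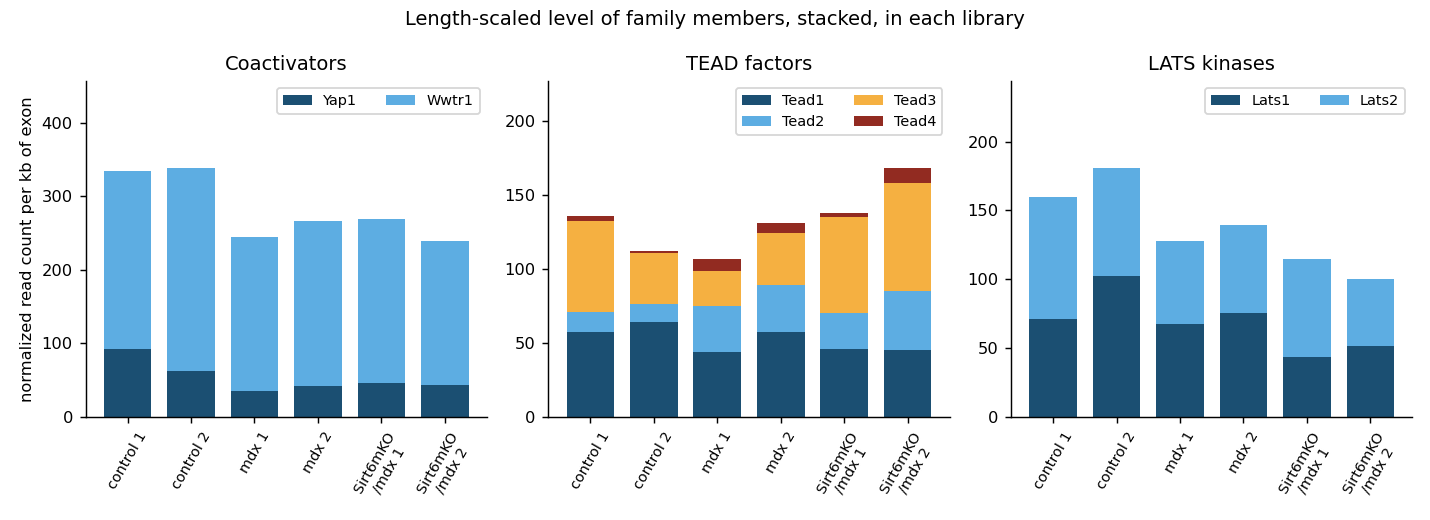
Stacked bars of normalized read counts per kb of exon (vertical axis) in each of the 6 libraries for the coactivators, the 4 TEAD factors and the LATS kinases. Wwtr1 exceeded Yap1 in every library, and Tead4 made up 1.24% to 7.57% of the TEAD total.

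Of the target genes, Cyr61 was the most abundant per kb in every library. Its level was 3579 ± 918 per kb in control, 556 ± 218 in mdx and 2744 ± 207 in Sirt6mKO/mdx, whereas Ctgf was at 180 ± 16.3, 21.1 ± 2.22 and 88.3 ± 5.68. Amotl2 stood at 275 ± 11.6, 147 ± 31.1 and 243 ± 20.7. Ankrd1 stood at 96.8 ± 96.8, 88.7 ± 22.1 and 368 ± 62.0, and its SD in control was as large as its mean. Within a library, the Cyr61 level was 15.3 to 34.3 times the Ctgf level, and the mdx ratios of 20.5 and 31.3 lay inside that range. The ratio of Cyr61 to Ankrd1 instead ran from 103 in control replicate 1 to 3.85 in mdx replicate 1.

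The first comparison asked how the pathway's RNA differed between mdx and control MuSCs. Cyr61 and Ctgf, which encode the secreted matricellular proteins CCN1 and CCN2, were lower in mdx, by 6.58-fold and 8.40-fold. Yap1 and Amotl2 were also lower with an adjusted p under the limit but by less than a factor of 2, and the TEAD and LATS genes were not called. A gene was called when limma on log2(value + 1), with Benjamini-Hochberg adjustment over all 15915 genes tested, gave an adjusted p of at most 0.05 and an absolute log2 fold change of at least 1. By this rule 2 of the 10 genes were called, both lower, against 14.2% of all genes tested (6.89% higher and 7.34% lower). On adjusted p alone 4 of the 10 passed, against 16.6% of all genes tested.

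Cyr61 (chr3:145646971-145649985, minus strand, GRCm38) had 5915 and 8535 normalized read counts in the control libraries and 811 and 1434 in mdx. Both mdx libraries lay far below both control libraries. The log2 fold change was -2.72 (SE 0.34, 95% interval -3.44 to -2.00), with an adjusted p of 7.6e-05 from limma. Ctgf (chr10:24595442-24598683, plus strand) had 548 and 482 in control against 56 and 65 in mdx. The mdx libraries were close to each other and did not overlap control. This was a log2 fold change of -3.07 (SE 0.27, 95% interval -3.65 to -2.49, adjusted p = 2.8e-06, limma). Both calls held when any 1 library was left out, with log2 fold changes of -3.13 to -2.31 for Cyr61 and -3.18 to -2.96 for Ctgf.

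Amotl2 (chr9:102716672-102733418, plus strand), which encodes an angiomotin-like scaffold that binds YAP at cell junctions, had 1778 and 1675 in control and 785 and 1062 in mdx. The mdx libraries were lower without overlap. Its log2 fold change of -0.92 (SE 0.26, adjusted p = 0.0233, limma) passed the limit on p and fell just short of the fold required, and without mdx replicate 2 it was -1.14 and called. By limma its adjusted p was 0.214 without mdx replicate 1 (-0.70), 0.0959 without control replicate 1 (-0.87), and 0.0549 and 0.0554 without Sirt6mKO/mdx replicate 1 or 2. It was also over the limit with no minimum mean (0.0722), with 1 prior variance for all genes (0.132) and with total count scaling (0.0582), so its pass on p did not hold there. Ankrd1 (chr19:36111965-36119844, minus strand), which encodes a stretch-responsive protein of striated muscle, had 82 and 477 in control and 301 and 211 in mdx. The mdx values lay between the control values. The log2 fold change was 0.35 (95% interval -0.79 to 1.48, adjusted p = 0.703, limma), and its positive sign comes from the log scale, since the plain mean was 280 in control and 256 in mdx. Leaving out control replicate 1 gave -0.92, and leaving out control replicate 2 gave 1.61, which was called with an adjusted p of 0.00670.

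Among the regulators, Yap1 (chr9:7931999-8004596, minus strand) had 850 and 576 in control and 318 and 389 in mdx. Both mdx libraries were below both control libraries. Its log2 fold change of -0.99 (SE 0.26, 95% interval -1.55 to -0.43, adjusted p = 0.0180, limma) stopped just short of the fold required. It was -1.27 and called without control replicate 2, but by limma its adjusted p was 0.142 without control replicate 1 (-0.71), 0.168 without mdx replicate 1 (-0.85) and 0.0559 without mdx replicate 2 (-1.14), and it was 0.0765 with no minimum mean and 0.133 with 1 prior variance for all genes. Wwtr1 (chr3:57455649-57575910, minus strand) had 1156 and 1319 in control and 1003 and 1070 in mdx, which were lower without overlap. The difference was small, with a log2 fold change of -0.25 (95% interval -0.77 to 0.26, adjusted p = 0.514, limma).

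Tead1 (chr7:112679318-112906807, plus strand) had 779 and 868 in control against 593 and 779 in mdx, and the groups met at 779. Tead4 (chr6:128224288-128300823, minus strand) had 11 and 5 in control and 29 and 23 in mdx. Both mdx libraries were higher, at a depth of about 6 and 7 reads in control against 30 and 44 in mdx. The log2 fold change of Tead4 was 1.66 (SE 0.79, 95% interval -0.01 to 3.33, adjusted p = 0.165, limma), so a difference was not established at this depth. That of Tead1 was -0.27 (adjusted p = 0.480, limma).

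Lats1 (chr10:7681209-7716458, plus strand) had 517 and 746 in control against 492 and 549 in mdx, and the groups overlapped. Lats2 (chr14:57642077-57758388, minus strand) had 622 and 549 in control and 418 and 446 in mdx, which were lower without overlap. Their log2 fold changes were -0.26 (adjusted p = 0.540) and -0.44 (adjusted p = 0.270) by limma. Lats2 shared its span with Xpo4 on the same strand and with a snoRNA gene on the other, and since the use of strand in counting was not stated its values are less certain. In all, 7 of the 10 genes did not overlap between mdx and control, and so did 57.0% of all genes tested.

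**Figure D3:**
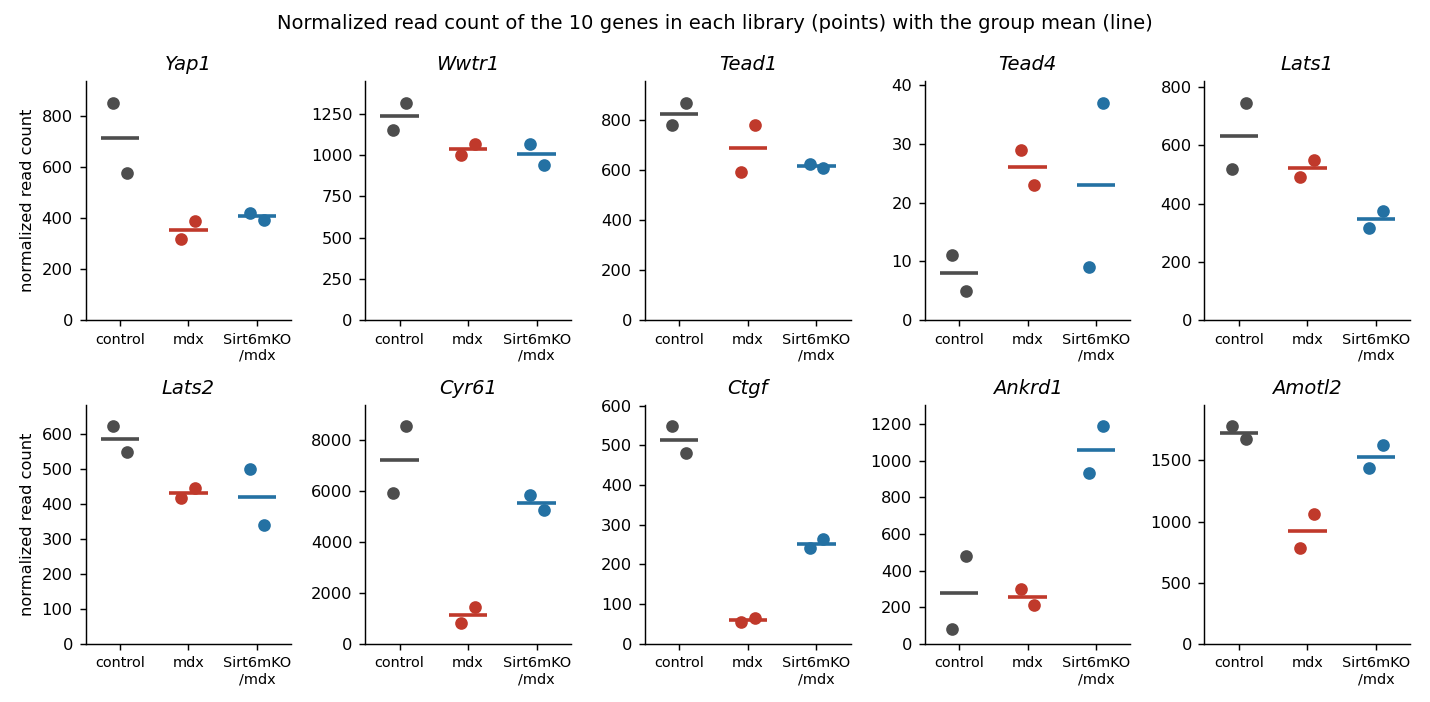
Normalized read count (vertical axis, each panel on its own scale from 0) of the 10 genes in each library (points) with the group mean (line) for control (grey), mdx (red) and Sirt6mKO/mdx (blue), 2 libraries each. Cyr61, Ctgf and Amotl2 were lowest in mdx, and Ankrd1 was highest in Sirt6mKO/mdx.

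The comparison of Sirt6mKO/mdx with mdx asked what differed where Sirt6 deletion was added to the mdx background. Cyr61, Ctgf and Ankrd1 were higher in the libraries labelled Sirt6mKO/mdx, by 5.13-fold, 4.13-fold and 4.17-fold. None of the coactivator, TEAD or kinase genes among the 10 was called. The called genes were 3 of 10, all higher, against 8.17% of all genes tested (5.62% higher and 2.54% lower). The mdx libraries entered this comparison and the one with control, so low values in mdx enter both.

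Cyr61 had 5836 and 5246 in Sirt6mKO/mdx against 811 and 1434 in mdx. These libraries were well above mdx, with a log2 fold change of 2.36 (SE 0.34, 95% interval 1.64 to 3.08, adjusted p = 0.00053, limma). Ctgf had 241 and 264 against 56 and 65, again without overlap. For Ctgf it was 2.05 (SE 0.27, 95% interval 1.47 to 2.63, adjusted p = 0.00028, limma). Leaving out any 1 library gave 1.95 to 2.77 for Cyr61 and 1.94 to 2.15 for Ctgf, all called. With 1 prior variance for all genes in place of one that follows the mean, both calls were lost in limma (adjusted p = 0.0884 for Cyr61 and 0.0697 for Ctgf).

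Ankrd1 had 935 and 1188 in Sirt6mKO/mdx against 301 and 211 in mdx. Both Sirt6mKO/mdx libraries exceeded every other library analysed here. In log2 terms the change was 2.06 (SE 0.53, 95% interval 0.93 to 3.19, adjusted p = 0.0261, limma). This call was less stable than the previous ones, since it was lost without mdx replicate 1 (2.32, adjusted p = 0.132, limma), without mdx replicate 2 (1.80, adjusted p = 0.218), without Sirt6mKO/mdx replicate 1 (2.23, adjusted p = 0.213) and without Sirt6mKO/mdx replicate 2 (1.89, adjusted p = 0.222). It was also lost in limma with a pseudocount of 0.1 (adjusted p = 0.0502), with no minimum mean (0.217), with total count scaling (0.0582) and with 1 prior variance (0.253) or a robust one (0.327). Ankrd1 is also expressed in muscle fibres, most of which straining and the sort should hold back. The summed level of 7 myofibre marker genes was 6611 to 8653 in control, 1435 to 4706 in mdx and 4749 to 10302 in Sirt6mKO/mdx, with none of them at 0 in any library. Of these markers, 4 of 7 were called lower in mdx than in control and 3 of 7 higher in Sirt6mKO/mdx than in mdx, against 7.34% and 5.62% of all genes tested. Their part in the Ankrd1 result was not tested. A larger number of cells of another type and more RNA per cell cannot be told apart in such bulk samples.

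Amotl2 had 1439 and 1623 against 785 and 1062 in mdx, higher without overlap. The log2 fold change of 0.74 (SE 0.26, 95% interval 0.20 to 1.29, adjusted p = 0.0829, limma) did not pass the limit. Yap1 had 419 and 393 against 318 and 389 in mdx, only just without overlap, and its log2 fold change was 0.21 (95% interval -0.35 to 0.76, adjusted p = 0.671, limma). Wwtr1 had 1071 and 940 against 1003 and 1070, and the log2 fold change was -0.05 (95% interval -0.56 to 0.47, adjusted p = 0.932, limma). The intervals of both coactivator genes thus reached less than 1 in either direction.

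Tead1 had 622 and 609 against 593 and 779 in mdx, with overlap and a log2 fold change of -0.14 (95% interval -0.66 to 0.38, adjusted p = 0.763, limma). Tead4 differed widely between the Sirt6mKO/mdx libraries, at 9 and 37, and these enclosed the mdx values of 29 and 23. Lats1 had 316 and 376 against 492 and 549, and was lower without overlap. A log2 fold change of -0.59 (95% interval -1.14 to -0.04, adjusted p = 0.168, limma) was not called. Lats2 had 500 and 339 against 418 and 446, with overlap and a log2 fold change of -0.07 (95% interval -0.62 to 0.48, adjusted p = 0.902, limma). In this comparison 6 of 10 genes did not overlap between groups, against 56.0% of all genes tested.

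The comparison of Sirt6mKO/mdx with control set both alterations against neither. Ankrd1 was higher by 5.30-fold and Ctgf lower by 2.03-fold in the libraries labelled Sirt6mKO/mdx. Cyr61 and Amotl2 were not called, with folds of 1.28 and 1.13 below control. The called genes were 2 of 10, 1 higher and 1 lower, against 7.87% of all genes tested (5.19% higher and 2.68% lower). This comparison shares its libraries with the comparisons above.

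Ankrd1 had 935 and 1188 in Sirt6mKO/mdx and 82 and 477 in control. The groups did not overlap, although the control libraries themselves differed widely. The log2 fold change was 2.40 (SE 0.53, 95% interval 1.27 to 3.54, adjusted p = 0.0116, limma), and leaving out control replicate 1 gave 1.14, leaving out control replicate 2 gave 3.67. The call was lost without Sirt6mKO/mdx replicate 1 (2.58, adjusted p = 0.116, limma) and without Sirt6mKO/mdx replicate 2 (2.23, adjusted p = 0.204), and in limma with no minimum mean (adjusted p = 0.155), 1 prior variance (0.208) or a robust one (0.277). Ctgf had 241 and 264 against 548 and 482 in control, which put Sirt6mKO/mdx between mdx and control. On the log2 scale the difference was -1.02 (SE 0.27, 95% interval -1.60 to -0.44, adjusted p = 0.0297, limma). It lay at the fold required, and the call was lost without control replicate 1 (-0.93), control replicate 2 (-1.12), Sirt6mKO/mdx replicate 1 (-0.96) or Sirt6mKO/mdx replicate 2 (-1.09), with adjusted p of 0.0985, 0.0805, 0.181 and 0.178, and also with no minimum mean (0.0836) or 1 prior variance (0.152).

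Cyr61 had 5836 and 5246 in Sirt6mKO/mdx against 5915 and 8535 in control, with a log2 fold change of -0.36 (95% interval -1.08 to 0.36, adjusted p = 0.562, limma). The interval leaves room for a difference of a factor of 2 downward. Amotl2 had 1439 and 1623 against 1778 and 1675, with a log2 fold change of -0.18 (95% interval -0.72 to 0.37, adjusted p = 0.730, limma). Yap1 had 419 and 393 against 850 and 576, and Lats1 had 316 and 376 against 517 and 746, both lower without overlap. Their log2 fold changes of -0.78 (adjusted p = 0.0765) and -0.85 (adjusted p = 0.0542) by limma were not called, but Lats1 was called without control replicate 1 (-1.11, adjusted p = 0.0310).

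The remaining regulators differed less from control or were less certain. Wwtr1 had a log2 fold change of -0.30, Tead1 of -0.42 and Lats2 of -0.50, with adjusted p of 0.488, 0.318 and 0.250 by limma. Tead4 had one of 1.20 (95% interval -0.47 to 2.87, adjusted p = 0.379, limma). Without overlap were 9 of the 10 genes, 8 of them lower, against 51.6% of all genes tested.

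**Figure D4:**
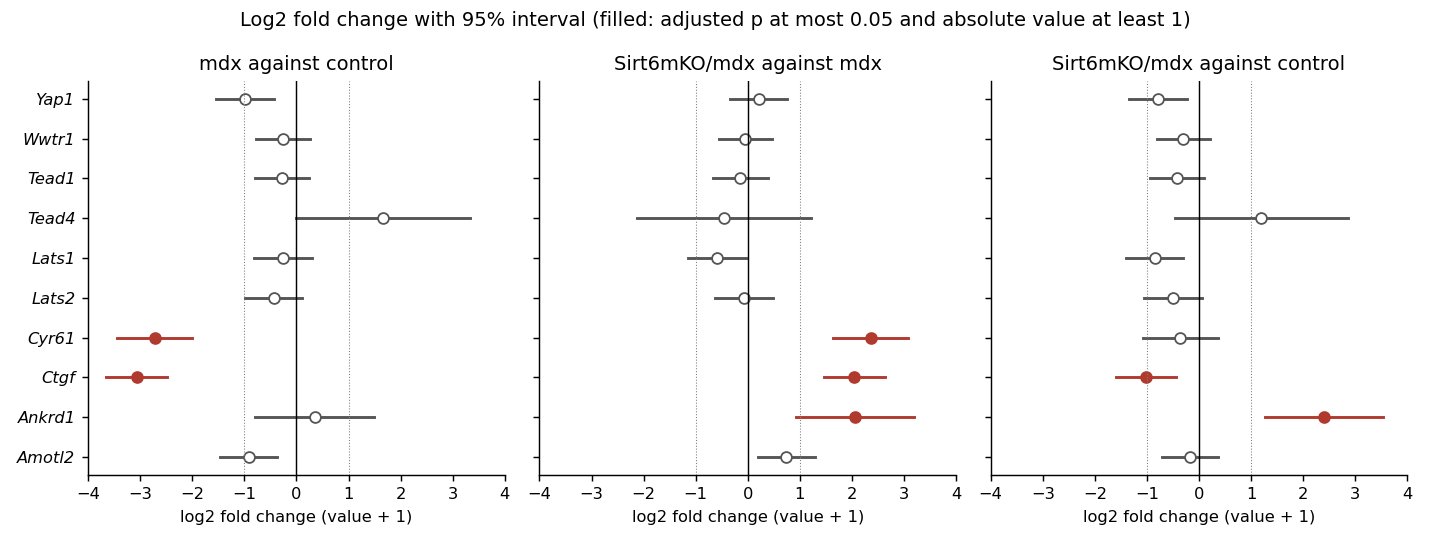
Log2 fold change with its 95% interval (horizontal axis, on the log2(value + 1) scale) of the 10 genes in the 3 comparisons, with dotted lines at -1 and 1. Filled red points are called genes: Cyr61 and Ctgf lower in mdx, then Cyr61, Ctgf and Ankrd1 higher in Sirt6mKO/mdx than in mdx, and Ankrd1 higher and Ctgf lower in Sirt6mKO/mdx than in control.

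The fall and rise of Cyr61 and Ctgf went along with those of a broader set of rapidly induced genes. The summed level of 19 immediate early and dissociation response genes, such as Fos, Jun, Egr1 and Atf3, which are switched on within minutes by growth factors or by tissue digestion, was 151879 to 163596 in control, 23701 to 26006 in mdx and 117138 to 124525 in Sirt6mKO/mdx. All 19 were called lower in mdx than in control and all 19 higher in Sirt6mKO/mdx than in mdx, with median log2 fold changes of -2.83 and 2.70, while 7.34% and 5.62% of all genes tested were so called. None of them was at 0 in any library. This list was chosen with earlier results of these data known, and both comparisons use the same mdx libraries. Cyr61 is itself often classed as an immediate early gene. The part of this response in the results for Cyr61 and Ctgf was not tested. Endothelial cells also express both genes, and although CD31-bearing cells and CD45-bearing blood cells had been depleted before the sort, their markers were measured. The summed level of 5 endothelial markers was 752 to 905 in control, 401 to 407 in mdx and 608 to 622 in Sirt6mKO/mdx, of which the defining markers Kdr and Emcn were at 0 in at least 1 library. Of the 4 endothelial markers tested, 2 were called lower in mdx than in control, against 7.34% of all genes tested. In Sirt6mKO/mdx against mdx the 4 log2 fold changes were positive but not called, while 5.62% of all genes tested were called higher. The median log2 fold changes in the 2 comparisons were -2.00 and 2.02. The summed level of 5 macrophage and leukocyte markers was also lowest in mdx, at 109 to 118 in control, 49 to 54 in mdx and 99 to 145 in Sirt6mKO/mdx. Of the 5, 3 were at 0 in at least 1 library, and Ptprc was at 0 in both control libraries. Of the 3 tested, 1 was called lower in mdx than in control, against 7.34% of all genes tested. Their log2 fold changes there were split, 1 positive and 2 negative (-1.60 to 2.29). In Sirt6mKO/mdx against mdx all 3 were positive but not called. The part of these cells was not tested either. Of the 19 genes, 17 had a RefSeq window and 2 (11.8%) held the TEAD motif, against 16.6% of all genes with a RefSeq window. The CArG box was in 5 of their 21 windows (23.8%), from 2 of the 17 genes, against 1.63% of all windows. The AP-1 motif was in 0 of the 21 windows, against 7.81% of all windows.

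Wider lists show how far the 4 target genes stand for other genes of the pathway. Of 17 other genes known as YAP/TAZ targets, 15 were tested, and Fjx1 and Foxf2 were below the filter. They did not move one way: 6 were called in mdx against control, 4 of them higher and 2 lower, 3 in Sirt6mKO/mdx against mdx, 2 higher and 1 lower, and 5 in Sirt6mKO/mdx against control, 3 higher and 2 lower. These 6, 3 and 5 of 15 stand against 14.2%, 8.17% and 7.87% of all genes tested. Their median log2 fold changes were 0.20, -0.14 and 0.13, against 0.00, 0.02 and 0.01 over all genes tested. The 10 genes, most of which are not target genes, had medians of -0.36, 0.08 and -0.39. The target genes Cyr61, Ctgf, Ankrd1 and Amotl2 themselves had -2.72, -3.07, 0.35 and -0.92 in mdx against control. In Sirt6mKO/mdx they had 2.36, 2.05, 2.06 and 0.74 against mdx, and -0.36, -1.02, 2.40 and -0.18 against control.

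Crim1 and Gadd45a, like Cyr61, were lower in mdx than in control and higher in Sirt6mKO/mdx than in mdx. Gadd45a, a stress-induced gene of growth arrest, had 376 and 318 (control), 151 and 98 (mdx), and 525 and 704 (Sirt6mKO/mdx). The 3 groups were separate, with Sirt6mKO/mdx highest, and had a log2 fold change of -1.50 (adjusted p = 0.00241) in mdx against control and 2.31 (adjusted p = 0.00015) in Sirt6mKO/mdx against mdx by limma. Crim1, which encodes a transmembrane protein that binds bone morphogenetic proteins, had 266 and 342, then 64 and 69, then 167 and 127. Its log2 fold changes were -2.17 (adjusted p = 0.00024), 1.12 (adjusted p = 0.0344) and, against control, -1.05 (adjusted p = 0.0462) by limma. The call against mdx was lost without any 1 of the 4 libraries compared (0.92 to 1.32), and that of Sirt6mKO/mdx against control when any 1 library of the 6 was left out (-1.24 to -0.85).

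Myof, Igfbp3, Axl and Ccdc80 were higher in mdx than in control. Myof, which encodes myoferlin, a membrane repair and myoblast fusion protein, had 30 and 127 (control), 605 and 707 (mdx), and 354 and 378 (Sirt6mKO/mdx). Its log2 fold change was 3.38 (adjusted p = 0.00015, limma) in mdx and 2.54 (adjusted p = 0.00276, limma) in Sirt6mKO/mdx against control. Control replicate 1 was low, and without control replicate 1 these were 2.36 and 1.52. The Sirt6mKO/mdx call was lost without Sirt6mKO/mdx replicate 1 (2.59) or 2 (2.49).

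Igfbp3, a secreted binder of insulin-like growth factors, had 29 and 94 (control), 575 and 400 (mdx), and 121 and 184 (Sirt6mKO/mdx). All 3 groups were separate, with mdx highest, and the log2 fold changes were 3.17 (adjusted p = 0.00019) in mdx against control, -1.68 (adjusted p = 0.0283) in Sirt6mKO/mdx against mdx and 1.49 (adjusted p = 0.0466) in Sirt6mKO/mdx against control by limma. The fall from mdx was lost without any 1 of the 4 libraries compared, at -1.98 to -1.38, and the difference from control kept its call only without control replicate 2 (2.32), with 0.66 without control replicate 1. Axl, a receptor tyrosine kinase gene, had 597 and 451, then 1292 and 1392, then 1156 and 994, and was higher than control in mdx (1.37, adjusted p = 0.00171, limma) and in Sirt6mKO/mdx (1.05, adjusted p = 0.0173, limma). Ccdc80, a matrix protein gene, had 189 and 286, then 650 and 354, then 306 and 212, and its log2 fold change in mdx of 1.04 (adjusted p = 0.0403, limma) lost its call without control replicate 1 (0.74), mdx replicate 1 (0.60) or either Sirt6mKO/mdx library (1.04). Rbms3, an RNA-binding protein gene, was lower in Sirt6mKO/mdx, at 879 and 782, than in control, at 1684 and 1810 (-1.07, adjusted p = 0.0138, limma). The Sirt6mKO/mdx calls of Axl and Rbms3 against control were lost without control replicate 2 (0.84 and -1.02) or either Sirt6mKO/mdx library (0.94 and 1.15, and -1.16 and -0.99). Cells carrying Sca1, the usual marker of fibro-adipogenic cells, had been depleted, and the summed level of 7 fibro-adipogenic marker genes was 26607 to 33280 in control, 33645 to 42621 in mdx and 24818 to 32018 in Sirt6mKO/mdx, highest in mdx without overlap. Of these 7 markers, 2 were called higher in mdx than in control and 1 lower in Sirt6mKO/mdx than in mdx, against 6.89% and 2.54% of all genes tested, with median log2 fold changes of 0.79 and -0.19. The summed level of 5 smooth muscle and pericyte markers was 1455 to 2636 in control, 3531 to 3576 in mdx and 1453 to 2072 in Sirt6mKO/mdx, again highest in mdx without overlap. Of these 5 markers, 1 was called higher in mdx than in control and 1 lower in Sirt6mKO/mdx than in mdx. In mdx against control 4 were positive and 1 negative, with a median log2 fold change of 0.48. They went both ways in Sirt6mKO/mdx against mdx, 3 positive and 2 negative, with a median of 0.02 (-1.56 to 1.17). The part of these cells in the results was not tested.

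**Figure D5:**
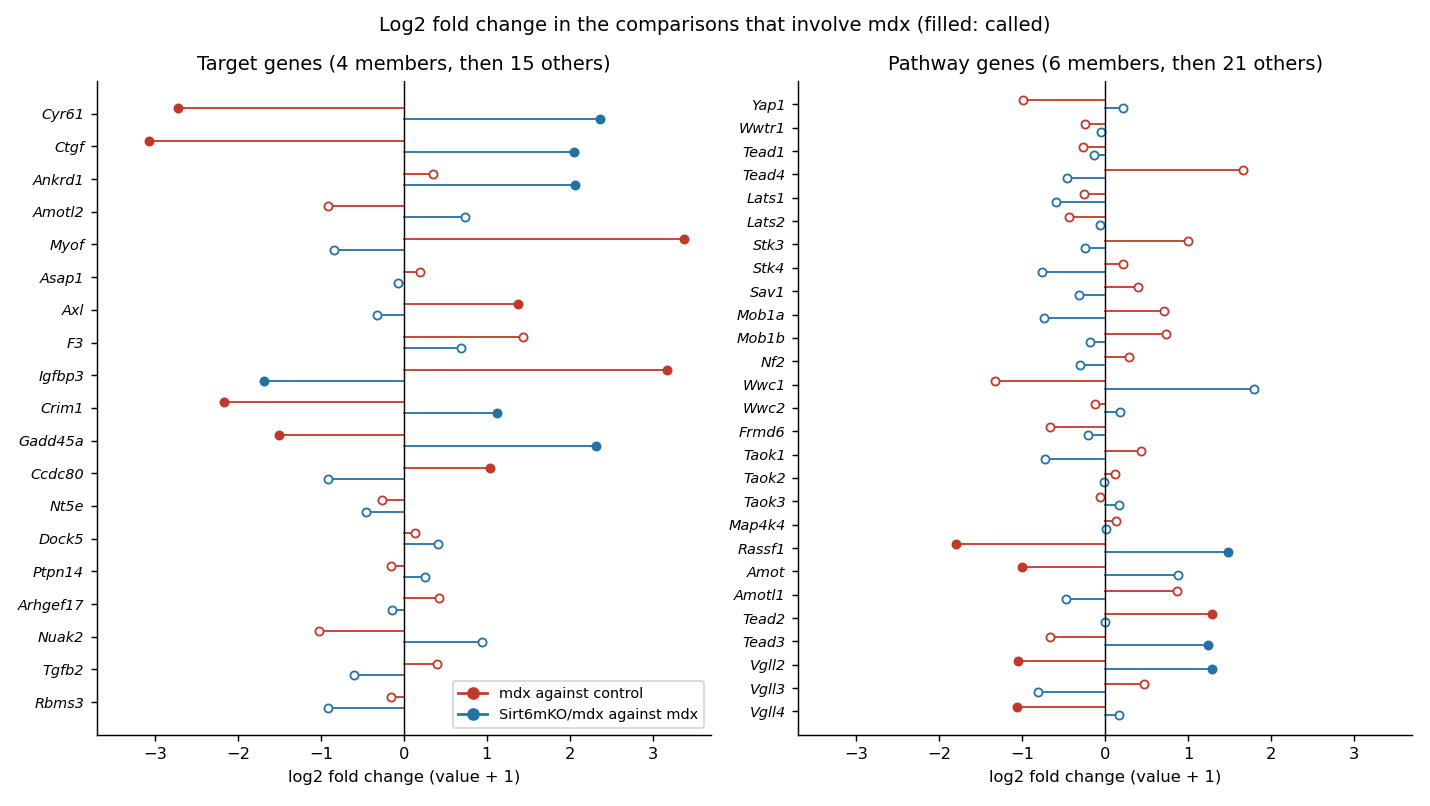
Log2 fold change (horizontal axis, log2(value + 1) scale) of 19 target genes and 27 pathway genes in mdx against control (red) and in Sirt6mKO/mdx against mdx (blue), which share the mdx libraries. Filled points are called genes, and Cyr61, Ctgf, Crim1 and Gadd45a among the targets and Rassf1 and Vgll2 among the pathway genes were called lower in the first and higher in the second.

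Of 22 other Hippo pathway genes, 21 were tested and Vgll1 was not in the table. In mdx against control 5 were called, 1 higher and 4 lower, in Sirt6mKO/mdx against mdx 3, all higher, and in Sirt6mKO/mdx against control 1, which was higher. These are 23.8%, 14.3% and 4.76% of the 21 genes, against 14.2%, 8.17% and 7.87% of all genes tested. The core kinase gene Stk4 and the partner genes Sav1, Mob1a and Mob1b were called in no comparison. Stk3, the other core kinase gene, named after its values were seen, had 151 and 198 in control against 367 and 327 in mdx, higher without overlap. Its adjusted p was 0.0201 by limma, and its log2 fold change (95% interval 0.42 to 1.57) was so little under the fold required that it rounds to it, so it was not called.

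Rassf1, which encodes a scaffold that activates the upstream kinases, had 314 and 249 (control), 97 and 65 (mdx), and 241 and 207 (Sirt6mKO/mdx). It was lowest in mdx without overlap, with a log2 fold change of -1.80 (adjusted p = 0.00098, limma) against control and 1.48 (adjusted p = 0.00753, limma) in Sirt6mKO/mdx against mdx. The former call held when any 1 library was left out, at -2.09 to -1.52. The latter was lost without mdx replicate 2 (1.19), Sirt6mKO/mdx replicate 1 (1.37) or Sirt6mKO/mdx replicate 2 (1.59).

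Among the TEAD genes outside the 10, Tead2 had 65 and 57 (control), 147 and 152 (mdx), and 116 and 190 (Sirt6mKO/mdx). It was higher than control in both other groups, with log2 fold changes of 1.28 (adjusted p = 0.0193) and 1.27 (adjusted p = 0.0314) by limma. The call in mdx was lost without any 1 of the 4 libraries compared (1.19 to 1.38) and that in Sirt6mKO/mdx without any 1 of the 6 libraries (0.92 to 1.63). Tead3 had 412 and 234 (control), 161 and 236 (mdx), and 436 and 490 (Sirt6mKO/mdx). Its log2 fold change in Sirt6mKO/mdx against mdx was 1.24 (adjusted p = 0.0208, limma), a call lost without any 1 of the 4 libraries compared (0.97 to 1.52).

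Vgll2 and Vgll4 encode Vestigial-like proteins that bind TEAD factors in place of YAP. Vgll4, a repressor, had 639 and 756 (control), 337 and 323 (mdx), and 354 and 389 (Sirt6mKO/mdx), and its log2 fold change in mdx was -1.07 (adjusted p = 0.00722, limma), not called without control replicate 2 (-0.95), mdx replicate 1 (-1.10) or mdx replicate 2 (-1.04). Vgll2, a muscle cofactor, had 174 and 264, then 88 and 121, then 203 and 316. Its log2 fold changes were -1.05 (adjusted p = 0.0398) in mdx and 1.29 (adjusted p = 0.0244) in Sirt6mKO/mdx against mdx by limma. The former call held without control replicate 1 (-1.35) but was lost without any 1 of the other 5, and the latter was lost without any 1 of the 4 libraries compared (0.97 to 1.61). Amot, which encodes angiomotin, had 159 and 197, then 91 and 84, then 176 and 149, with a log2 fold change of -1.01 in mdx (adjusted p = 0.0341, limma) that lost its call when any 1 library was left out.

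The genes whose profile over the 6 libraries was most like that of each target gene, among 9666 genes with a mean of at least 50, were found by Pearson's r of log2(value + 1), given as a description because the libraries share their groups and many genes reach a high r with 6 points. For Cyr61 they were Zswim6 (0.998), Ubr2 (0.993) and Zfp511 (0.992). For Ctgf they were Scamp3 (0.999), Fbxo33 (0.997) and Fosl2 (0.996), the last of which encodes an AP-1 factor and had 5677 and 4539 (control), 431 and 455 (mdx), and 2365 and 2003 (Sirt6mKO/mdx). For Amotl2 they were Asxl1 (0.998), Mir654 (0.993) and Clk3 (0.993). Ankrd1 had other nearest genes, Pdlim3 (0.980), Myo1e (0.977) and Snord90 (0.974), and Pdlim3, which encodes a Z-disc protein, had 91 and 172 (control), 166 and 149 (mdx), and 217 and 251 (Sirt6mKO/mdx).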

How the data were processed

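The deposited table held 1 row per Ensembl gene and 1 column per library. Reads had been trimmed by the authors (Reaper), aligned with STAR (2.4.2a per the labels) to GRCm38, counted per gene with featureCounts (1.4.5-p1), leaving out reads on several genes or places, and normalized with DESeq2 (1.6.0). The deposited values are whole numbers but not raw counts: they are normalized read counts that the authors rounded, so their unit was taken as a score. Library totals cover counting on genes, as recovered from the values; RNA was rRNA-depleted total RNA sequenced on an Ion Torrent instrument.

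Groups came from the sample titles. From the values, log2(value + 1) was fitted for all 6 libraries with limma 3.58.1 in R 4.3.3 (mean-dependent prior variance, two-sided), for the 15915 genes with a mean of at least 5. Fold changes are on that scale, which understates those of low genes, and folds in words are the same values off the log scale. The limits on p, fold and mean follow the study's criteria, but its count model was not used because rounded normalized values are not raw counts. The fit was tested on simulated data. The 10 genes and all lists were chosen with earlier results of these data known, the Xist and Ddx3y check after their values were seen. From the other lists, up to 6 called genes per comparison were named, those of largest change at a mean of 50 or more. Coordinates are GRCm38 as in the table, and lengths are merged exons of GENCODE M21, matched for 98.5% of genes. Promoter windows are from RefSeq (GRCm38.p6). Alternatives were another pseudocount, other filters, total count scaling, other prior variances, a replicate block, adjusted p alone, and leaving out each library.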

Additional observations from a re-analysis of the deposited data

How the results depend on the processing

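Of the results for single genes, 297 kept their direction and their call (adjusted p and fold together) under the alternatives other than leaving out a library, 65 lost a call, 5 gained one and 1 turned, and leaving out 1 library gave 231, 76, 4 and 7. Total count scaling, which leaves a median log2 fold change over all genes of -0.58 in both comparisons of Sirt6mKO/mdx, took the share of higher calls from 68.8% to 14.0% against mdx and from 65.9% to 14.5% against control. Under it Yap1 was at -0.42 against mdx, which is 0.16 relative to that median, and Cyr61, Ctgf and Ankrd1 at 2.31, 2.01 and 2.02 relative to it (1.73, 1.42 and 1.43 as fitted, the last not called). It gave 6 calls among the 10 genes against control (1 higher, 5 lower), 5 and 3 among the other Hippo genes against mdx and control, all lower, 6 (1 higher, 5 lower) and 3 (1 higher, 2 lower) among the other target genes, and against mdx 3 of the 10 genes, 2 higher and Lats1 lower (-1.22, adjusted p = 0.0119 by limma, -0.63 relative to the median). With 1 prior variance for all genes, 8 of the 9 counts fell: to 0 for every list in both Sirt6mKO/mdx comparisons and for the other Hippo genes in mdx against control, and to 1 for the other target genes there, while Cyr61 and Ctgf stayed called in mdx against control. Over all genes limma then called 0 in Sirt6mKO/mdx against mdx, with 3156 at an unadjusted p under 0.05. With no minimum mean, the calls of the other Hippo genes were 2, 0 and 0 in the 3 comparisons in the order of the text, those of the other target genes 1 against mdx and 0 against control in Sirt6mKO/mdx, and those of the 10 genes 0 against control. Adjusted p alone gave 4 of the 10 genes in mdx against control (adding Yap1 and Amotl2, which lose that pass with no minimum mean or 1 prior variance) and 3 other Hippo genes in Sirt6mKO/mdx against control. A robust prior variance left 1 of the 10 genes and 3 other target genes in that comparison, and a pseudocount of 0.1 left 3 other target genes there. The cause was not tested.

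Leaving out 1 library gave, over the 3 comparisons in order, 2 to 4, 2 to 3 and 0 to 2 calls among the 10 genes, 1 to 4, 0 to 3 and 0 to 1 calls among the other Hippo genes, and 5 to 6, 1 to 3 and 0 to 3 calls among the other target genes. Directions turned for genes that were not called: Wwtr1 (-0.14 to 0.05, including 0.00), Tead1 (-0.34 to 0.05), Tead4 (-1.42 to 0.50) and Lats2 (-0.35 to 0.21) against mdx in Sirt6mKO/mdx, and Lats1 (-0.52 to 0.01) and Ankrd1 (-0.92 to 1.61) in mdx against control. Where 1 library was alone in its group, it was assumed to vary like the others. Libraries with the same replicate number were not shown to be pairs (correlations of same-numbered deviations -0.13, 0.12 and 0.01); with the replicate block, the 10 genes gave 2, 3 and 2 calls, as without it, and 2415, 1510 and 1404 calls over all genes against 2265, 1300 and 1253. The block changed no other call count of the lists. With 2 libraries per group and 6 to 44 reads for Tead4, differences of its size were at the limit of what the depth allowed.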
